A study of Danio rerio with 8 samples.

Results

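The mitochondrial ribosomal protein genes of the zebrafish were taken as the rows of the gene table whose symbol begins with mrpl or mrps and a digit. This gave 74 of 35197 rows, 46 named for the large and 28 for the small subunit of the mitochondrial ribosome. RNA had been measured in 8 single whole larvae at 6 days post fertilization. The groups were 4 wild-type siblings and 4 larvae homozygous for the osgep G177A allele, described as zygotic homozygotes; the labels give no clutch, tank or genotype of the parents. The product of osgep is the enzyme of KEOPS, which places the threonylcarbamoyl modification on transfer RNAs outside mitochondria. Transfer RNAs inside mitochondria receive it from a separate enzyme, encoded by osgepl1. Each larva was homogenised whole, so fewer cells of a type and less RNA per cell cannot be told apart.

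The mitochondrial ribosome translates the few messenger RNAs made from mitochondrial DNA, which encode core subunits of the respiratory chain. Its protein components are encoded in the nucleus, made in the cytosol and imported. Some have counterparts in bacterial ribosomes and others occur only in mitochondria. The small subunit decodes the messenger RNA, and the large subunit forms the peptide bond.

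Symbols do not always give a protein's place. In the mammalian particle the proteins of mrps30 and mrps18a sit in the large subunit, and the mrps36 product is a component of the oxoglutarate dehydrogenase complex and not of the ribosome. The rows MRPL49 and MRPS12, written in capitals, do not match the rule and are given apart. All 74 members passed the filter on low counts. Their estimated counts per larva lay between 42 and 1045, and each symbol and identifier occurred once in the table.

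Estimated counts totalled between 14398812 and 19052599 per larva. TMM scaling factors, which set libraries to a common level over the bulk of genes, were 1.07, 0.732, 0.833 and 0.9 for wild-type larvae 1 to 4. They were 1.23, 0.951, 1.23 and 1.19 for homozygotes 1 to 4. The 100 most abundant rows held between 34.4% and 42.7% of counts in wild-type larvae and between 30.1% and 38.5% in homozygotes. On the first principal component of all rows wild-type 1 (-5.26) and homozygote 2 (-3.38) stood apart from the rest of their groups (34.3 to 60.6 and -50.9 to -34.5). Both lay between the other wild types and the other homozygotes. Results that rest on them are therefore given without them as well. osgep, the mutated gene, was lower in each homozygote (1.64 to 3.68 CPM, the count scaled to a fixed library size) than in any wild-type larva (5.55 to 11.5 CPM; log2 fold change -1.66, SE 0.29, adjusted p = 0.0187 by edgeR). Its adjusted p was 0.0536 scaled by library totals alone, 0.0722 and 0.0855 without wild types 2 and 3, and 0.0608 and 0.0516 without homozygotes 1 and 3. The markers of 12 larval cell types that were found in the table were above 0 in every larva. Of the neutrophil markers 3 of 5 were called lower and they summed to 333 to 709 CPM in the wild types against 106 to 154 CPM. Of the macrophage and microglia markers 4 of 5 were called lower, with sums of 51.7 to 120 CPM and 31.1 to 41.2 CPM. No marker of the other cell types was called by edgeR, though some sums followed the larvae. Fast muscle markers summed to 17500, 35400, 15500 and 18200 CPM in homozygotes 1 to 4, against 23100 to 38900 CPM among wild types. Photoreceptor markers summed to 1340, 2130, 1400 and 1430 CPM, against 1820 to 2920 CPM. In both, homozygotes 1, 3 and 4 were below every wild-type larva and homozygote 2 was among them. The median log2 fold changes of erythrocyte, exocrine pancreas and liver markers were -1.26, -0.90 and -0.56. Those of neuron and slow muscle markers were above 0, at 0.23 and 0.25. Neuron markers summed to 699, 526, 553 and 405 CPM in homozygotes 1 to 4, against 429 to 494 CPM among wild types. The part of these differences in the values below was not tested.

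No mitochondrial ribosomal protein gene passed the test between genotypes. By the quasi-likelihood test of edgeR, adjusted by Benjamini-Hochberg over the 21447 tested rows, 0 of 74 were called, where 1.05% of all rows were (0.284% higher and 0.769% lower). DESeq2 (7.89% of rows; 2.7% higher, 5.2% lower) and limma voom (0.634%) also called 0. So did edgeR with RLE factors (1.11%), library totals only (0.574%), no filter (1.18%), a minimum count of 50 (1.29%), the 100 most abundant rows removed (1.21%) or the replicate number as a block (1.55%). At an unadjusted p under 0.05 there were 18 members (24.3%), close to the 22.3% of all rows. Of these, 16 were lower in homozygotes (21.6%, against 12.4% of all rows) and 2 were higher (2.7%, against 9.84%). In TMM-scaled CPM the 2 groups of larvae did not overlap in 1 member, mrpl52, which was higher in homozygotes. This was so in 10.4% of all rows (5.5% higher and 4.95% lower). Overlap depends on the scaling, and it was not counted with library totals. The CPM of single genes below are likewise TMM-scaled, so the order of larvae in them rests on that scaling. The smallest adjusted p was 0.125, for mrps31.

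The median fold change of the members nevertheless lay below that of all genes. With TMM scaling the log2 value was -0.29 over the members, with 57 below 0 and 17 above, and 0.02 over all tested rows (both medians). Of the members 77% lay below 0, where 48.2% of all rows did. Most members moved together over the larvae, so the 57 are not separate observations. Leaving out wild-type 2 brought the members' median to -0.15, and leaving out homozygote 4 to -0.17; for the large subunit these were -0.15 and -0.19, and for the small -0.14 and -0.13. Scaling by library totals alone turned 32 of the 74 to the other side of 0. The members' median was then 0.11 while that of all rows was 0.40. Relative to the median of all rows, the large subunit stood at -0.32 with TMM and -0.30 with library totals, and the small subunit at -0.26 and -0.26. A change of scaling moves all genes of a larva by the same factor. The position below the bulk of genes could therefore hardly change, and its near equality is no check on it. The sign of the fold change differed between the scalings for the 32 members.

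**Figure D1:**
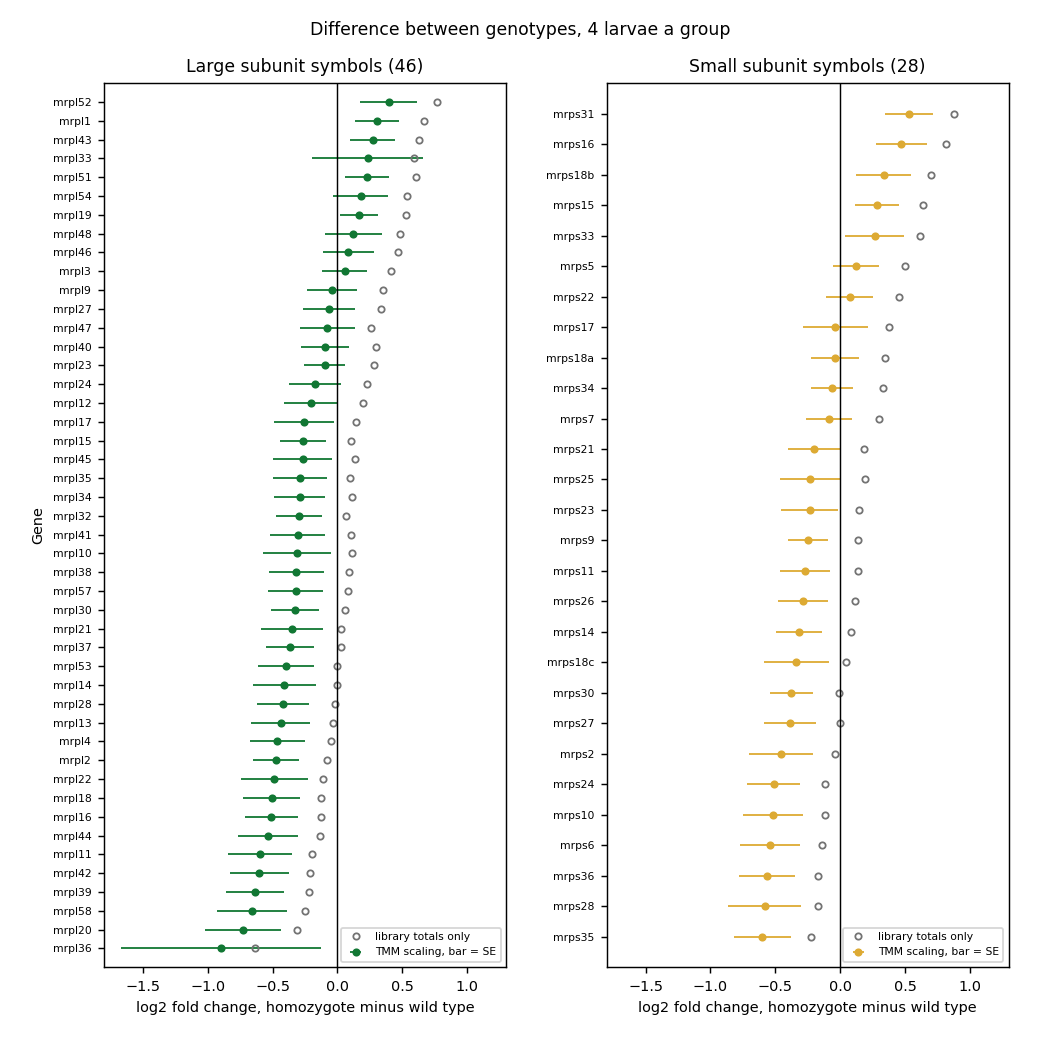
Log2 fold change (homozygote minus wild type, x axis) of each of the 74 genes, large subunit symbols on the left and small on the right, as filled points with the SE under TMM scaling and open circles with library totals alone. With TMM 57 of the points lie below 0, and the open circles lie to the right of the filled points.

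Per larva most members moved together, and the spread within a genotype was as wide as the gap between genotypes. The mean log2 CPM of the 74 genes, relative to the wild-type mean, stood at -0.256, 0.285, 0.0382 and -0.0671 for wild-type larvae 1 to 4 and, for the homozygotes in the same order, at -0.181, 0.139, -0.375 and -0.457. Homozygote 2 was above 3 of the wild-type larvae, and wild-type 1 was below 2 of the homozygotes, so the groups overlapped. The absolute means were 4.15 ± 0.226 log2 CPM in wild-type and 3.93 ± 0.265 log2 CPM in homozygous larvae (SD, n = 4 each). Within the wild types, 54 genes were highest in larva 2 and 53 were lowest in larva 1. Within the homozygotes, 65 genes were highest in larva 2 and 48 were lowest in larva 4.

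The larva with the smallest TMM factor, wild-type 2, had the highest mean, and the 3 with the largest factors, homozygotes 1, 3 and 4, lay below 0. As a share of all estimated counts, without such scaling, the members made up 0.135%, 0.144%, 0.137% and 0.136% of the 4 wild-type libraries. For the homozygote libraries the share was 0.164%, 0.159%, 0.145% and 0.132%. By that measure homozygotes 1, 2 and 3 were above every wild-type larva and homozygote 4 was below all of them. The spread of single genes was also wide: the coefficient of variation had a median of 22% among wild types and 21.8% among homozygotes. Over the 12661 rows in the same range of mean CPM the medians were 17.8% and 18.9%.

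**Figure D2:**
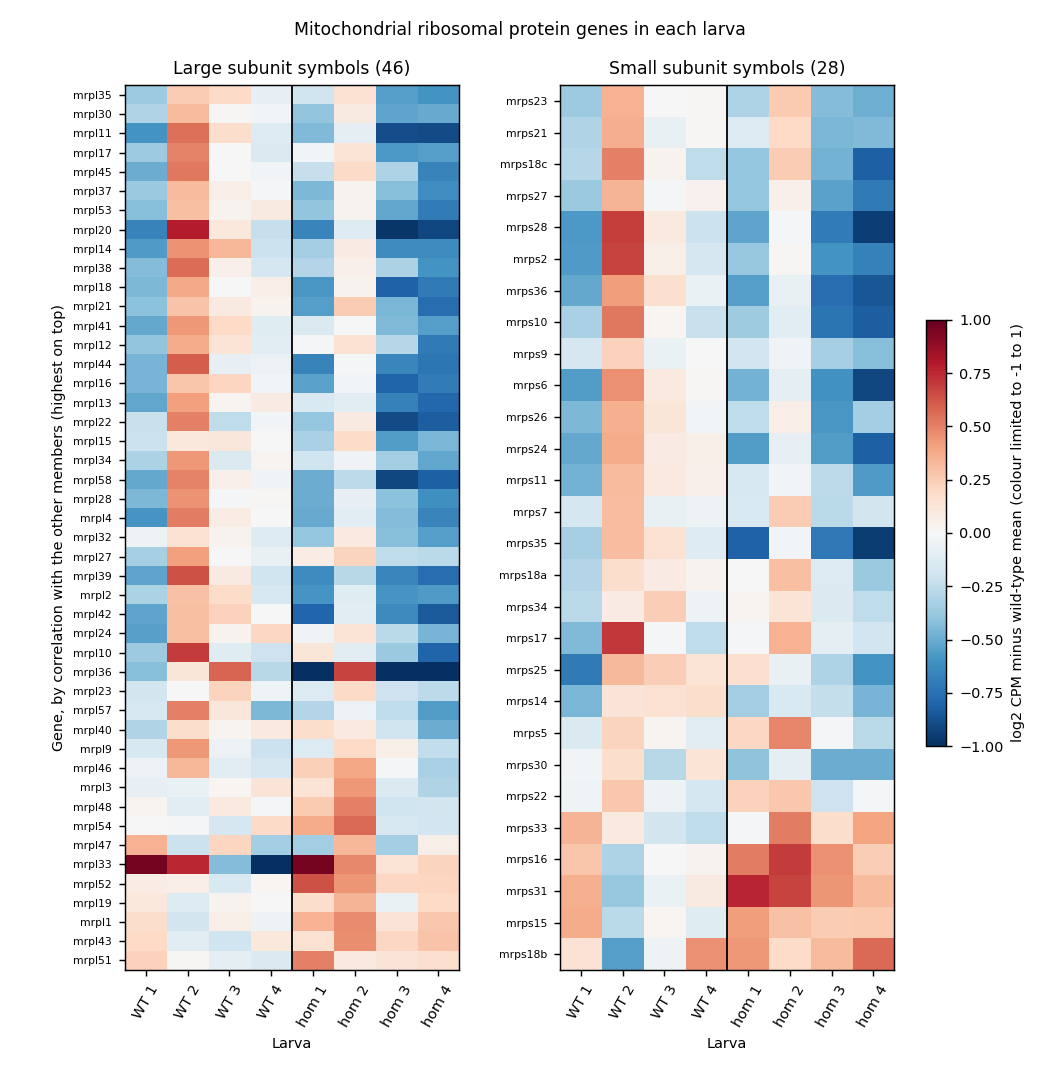
Log2 CPM of each gene (rows) in each larva (columns) minus its wild-type mean, for large subunit symbols (left) and small subunit symbols (right), ordered by correlation with the other members. Most rows are highest in wild-type 2 and lowest in homozygotes 3 and 4, while the rows at the bottom run the other way.

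Large subunit genes had a median log2 fold change of -0.30, or 0.10 with library totals. Of the 46 fold changes 36 were negative (78.3%, against 48.2% of all rows) and 10 positive, and 0 passed the test. mrpl39, which encodes a protein found only in mitochondrial ribosomes, had the smallest p of the large subunit. Wild-type larvae 1 to 4 had 22.9, 51.3, 35.1 and 28.8 CPM. Homozygotes 1 to 4 had 21.3, 27.1, 20.95 and 19.4 CPM. In TMM-scaled CPM only homozygote 2 exceeded the lowest wild-type value (log2 fold change -0.64, SE 0.22, adjusted p = 0.131 by edgeR). This order rests on the scaling. Wild-type 1 had 408 of 16762957 estimated counts, homozygote 1 had 376 of 14398812 and homozygote 3 had 472 of 18317095. By library total these homozygotes were above wild-type 1.

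mrpl2 encodes a protein whose bacterial counterpart lies near the site of peptide bond formation. The wild types had 49.3, 75.3, 70.0 and 55.05 CPM and the homozygotes 40.9, 56.5, 40.8 and 41.6 CPM. In TMM-scaled CPM homozygotes 1, 3 and 4 were below every wild-type larva, and homozygote 2 lay within the wild-type range (log2 fold change -0.47, SE 0.18, adjusted p = 0.145 by edgeR). With library totals the log2 fold change of mrpl2 was -0.08 (adjusted p = 0.713 by edgeR). mrpl42, for another protein particular to mitochondria, was at 9.48, 16.8, 16.1 and 13.7 CPM against 7.87, 12.6, 8.75 and 7.62 CPM. Again homozygote 2 alone lay within the wild-type range in TMM-scaled CPM (log2 fold change -0.60, SE 0.23, adjusted p = 0.146 by edgeR). By library total homozygote 3 (197 of 18317095 estimated counts) was also above wild-type 1 (169 of 16762957). mrpl16, whose bacterial counterpart is likewise a large subunit core protein, had a log2 fold change of -0.51 (SE 0.20), or -0.12 with library totals.

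mrpl20, which has a bacterial counterpart, and mrpl58, whose human protein is a peptidyl-tRNA hydrolase built into the large subunit, were among the 4 lowest fold changes. mrpl20 ranged from 10.7 to 29.6 CPM among wild types and from 8.66 to 15.6 CPM among homozygotes (log2 fold change -0.73, SE 0.30, or -0.31 with library totals). mrpl58 ranged from 3.37 to 6.90 CPM and from 2.53 to 4.02 CPM (-0.66, SE 0.27). In both genes the groups overlapped, and the adjusted p by edgeR was 0.173 and 0.177.

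The lowest fold change of all belonged to mrpl36 (ENSDARG00000070607), which encodes a small protein with a bacterial counterpart. The wild-type libraries held 232, 232, 392 and 247 estimated counts of it, and the homozygote libraries 75, 494, 70 and 82. Scaled, these made 13.0, 19.1, 26.3 and 14.4 CPM against 4.25, 28.0, 3.11 and 3.83 CPM. Homozygotes 1, 3 and 4 were below every wild-type larva and homozygote 2 was above all of them.

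Over all larvae mrpl36 had a log2 fold change of -0.90 with an SE of 0.77 and was not called (adjusted p = 0.529 by edgeR). Limma voom gave -1.55 and the replicate block -1.51, both uncalled. Without homozygote 2 it was -2.29 (SE 0.27, adjusted p = 0.00894 by edgeR), 1 of 2 members called in that setting. Among all rows 5.31% were then called, 1.85% higher and 3.46% lower. The coefficient of variation among homozygotes, 124%, was the largest of any member. Removing any other single larva left the fold change between -1.01 and -0.58 and the gene uncalled by edgeR; over all alternatives the adjusted p ran from 0.00206 to 0.756.

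**Figure D3:**
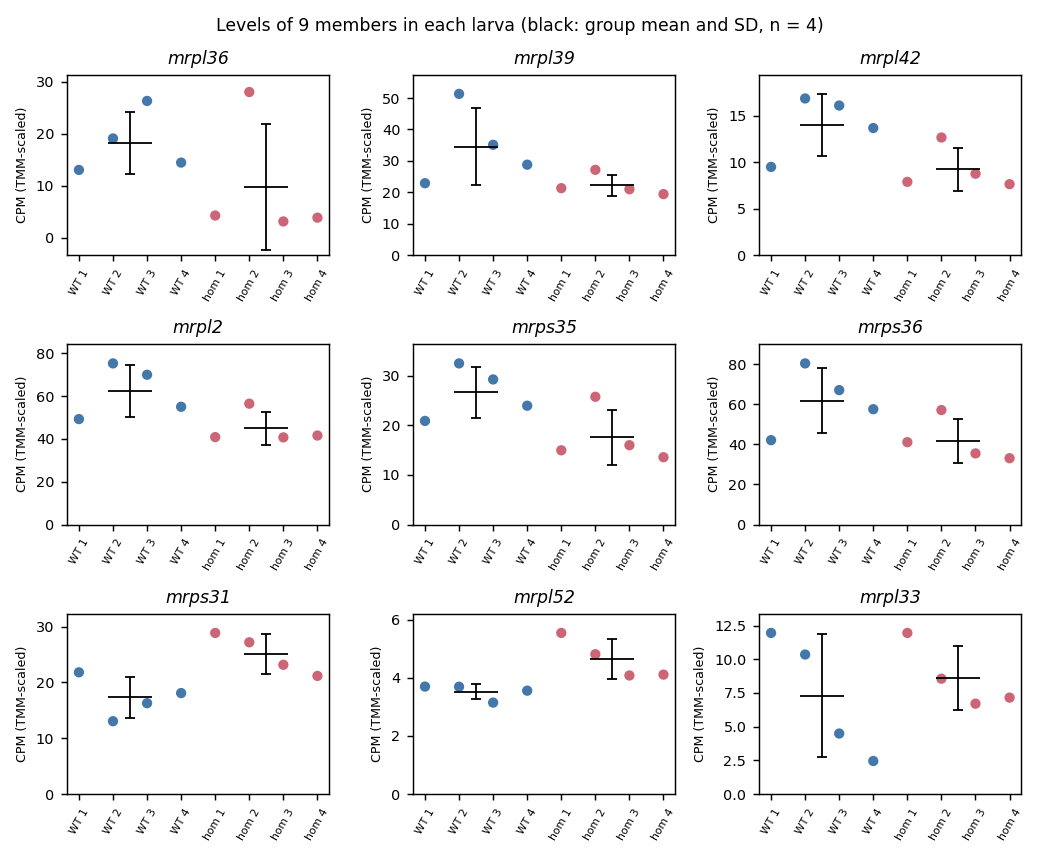
CPM after TMM scaling (y axis) of 9 genes in each larva (x axis; WT, wild type; hom, homozygote), with the group mean and SD in black (n = 4). For mrpl36 homozygote 2 lies at 28.0 CPM and the other homozygotes between 3.11 and 4.25 CPM; mrps31 and mrpl52 are higher in homozygotes on average, and mrpl33 is spread from 2.45 to 11.95 CPM among wild types.

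The large subunit also held genes with fold changes above 0. Library totals raised fold changes in general, so that setting was no check on their side of 0. mrpl52, for a protein found only in mitochondria, was the member whose groups did not overlap in TMM-scaled CPM. The wild types had 3.70, 3.70, 3.15 and 3.56 CPM and the homozygotes 5.55, 4.82, 4.08 and 4.11 CPM. The smallest homozygote value lay just above the largest wild-type value (log2 fold change 0.39, SE 0.22, adjusted p = 0.307 by edgeR). mrpl33, with a bacterial counterpart, varied most among wild types: 11.95, 10.35, 4.49 and 2.45 CPM, a coefficient of variation of 62.3%. Its homozygote values of 6.70 to 11.95 CPM lay inside that range; this gene was singled out after its values were seen.

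Small subunit genes had a median log2 fold change of -0.24, or 0.14 with library totals. Of the 28 fold changes 21 were negative (75%, against 48.2% of all rows) and 7 positive, and 0 passed the test. mrps35, whose protein is particular to mitochondria, had 20.9, 32.45, 29.2 and 23.9 CPM among wild types. Among homozygotes it had 14.95, 25.7, 16.0 and 13.6 CPM. Homozygotes 1, 3 and 4 were below all wild types (log2 fold change -0.60, SE 0.22, adjusted p = 0.138 by edgeR, or -0.22 with library totals). mrps24, which corresponds to a core protein of the bacterial small subunit, had a log2 fold change of -0.51 (SE 0.21, adjusted p = 0.17 by edgeR), or -0.12 with library totals.

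mrps31 (ENSDARG00000057855), for a small subunit protein without a bacterial counterpart, had the smallest p of all members and ran the other way. Wild-type values were 21.8, 13.1, 16.3 and 18.1 CPM, and homozygote values 28.9, 27.2, 23.2 and 21.2 CPM. Wild-type 1 lay above homozygote 4, and the other wild types were below every homozygote. This gave a log2 fold change of 0.53 (SE 0.18, adjusted p = 0.125 by edgeR). With library totals it was 0.88 (adjusted p = 0.0693), and over all alternatives the adjusted p ran from 0.04 to 0.296. mrps16, with a bacterial counterpart, ranged from 5.09 to 7.68 CPM among wild types and from 7.53 to 10.3 CPM among homozygotes, so that its groups overlapped narrowly (log2 fold change 0.47, SE 0.20, adjusted p = 0.18 by edgeR).

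The differences among the 3 genes related to bacterial S18 were not tested, and none of the genes was called by edgeR. Their log2 fold changes were 0.33 (SE 0.21) for mrps18b, -0.34 (SE 0.25) for mrps18c and -0.04 (SE 0.18) for mrps18a. With library totals mrps18c and mrps18a turned to 0.04 and 0.34, and mrps18a also turned to between 0.01 and 0.08 without wild-type 2, homozygote 3 or homozygote 4. mrps30 stood at -0.38 (SE 0.17, adjusted p = 0.202 by edgeR), or -0.008 with library totals. mrps36, the dehydrogenase component, had 42.1, 80.4, 67.1 and 57.6 CPM in the wild types and 41.1, 57.1, 35.5 and 33.1 CPM in the homozygotes. This was a log2 fold change of -0.57 (SE 0.22, adjusted p = 0.153 by edgeR), close to that of the ribosomal mrps35. With library totals mrps36 was at -0.17. mrps33, a small subunit gene with few counts, was at 4.03 to 6.11 CPM and 4.76 to 6.91 CPM (log2 fold change 0.26, SE 0.22).

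The ratio of large to small subunit RNA needs no scaling between larvae. Genes were summed by symbol, so the small subunit sum held mrps30, mrps18a and mrps36. Abundant genes weigh most in such sums. The summed estimated counts of large over small subunit genes gave a ratio of 1.701, 1.776, 1.758 and 1.67 for the wild types. For the homozygotes it gave 1.609, 1.714, 1.612 and 1.625. Homozygotes 1, 3 and 4 were below every wild-type larva and homozygote 2 lay among them. The means were 1.73 ± 0.0493 and 1.64 ± 0.0498 (SD, n = 4 each). No test was made of a score over the members.

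Gene by gene, the mean log2 CPM of the large subunit minus that of the small, each relative to the wild-type mean, came to -0.017, 0.062, 0.0139 and -0.06 for the wild types and to -0.081, -0.018, -0.144 and -0.113 for the homozygotes. Without mrpl36 the homozygote values were -0.0412, -0.03, -0.0986 and -0.0766 and the wild-type values -0.0132, 0.0664, 0.00192 and -0.0559. The lowest wild-type larva was then below homozygotes 1 and 2. The medians of the fold changes differed by -0.06 between the subunits, and by -0.07 with mrps30 and mrps18a counted in the large subunit and mrps36 left out.

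**Figure D4:**
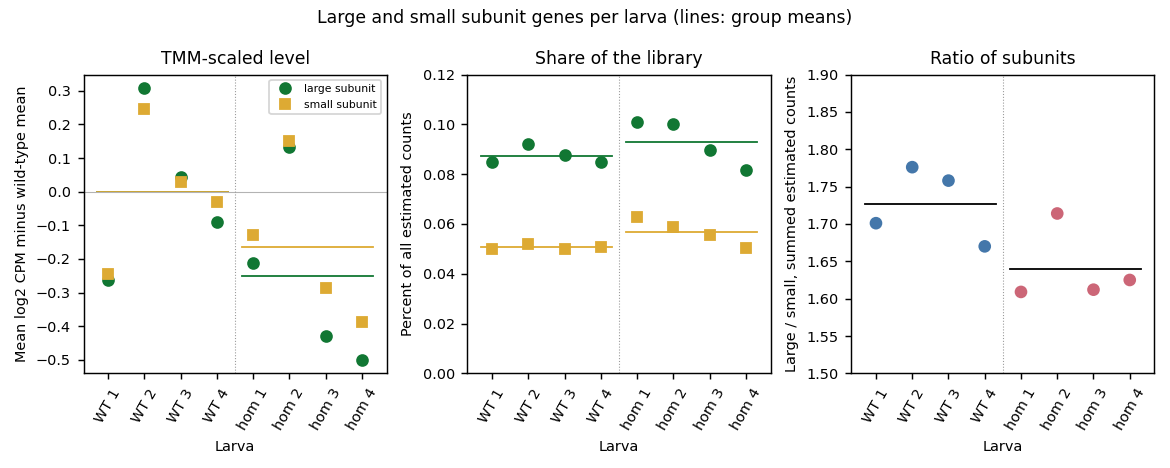
Large (circles) and small (squares) subunit genes in each larva: mean log2 CPM relative to wild type (left), share of all estimated counts in percent (middle), and the ratio of summed counts, large over small, on an axis from 1.5 to 1.9 (right); lines are group means. The left panel overlaps between genotypes, and in the right panel homozygotes 1, 3 and 4 lie between 1.609 and 1.625, below the wild types.

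Members with a bacterial counterpart and those found only in mitochondria overlapped in their fold changes. Of the 44 with a counterpart, 37 lay below 0 (84.1%) and the median was -0.30. Of the 29 without, 19 lay below 0 (65.5%) and the median was -0.23. Over all rows 48.2% lay below 0. mrps18a and mrps18b, though related to bacterial S18, were counted among the 29. In the large subunit by structure the medians were -0.30 and -0.31, and in the small subunit -0.27 and -0.15. No member of either class was called by edgeR.

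Across the 8 larvae most members followed one another. The median Pearson correlation of log2 CPM between 2 members was 0.71 over 2701 pairs, with 2069 above 0. It was 0.72 within the large subunit, 0.71 within the small and 0.72 between them. These are descriptions over 8 larvae, and within each larva all genes share its scaling factor, depth and genotype. Against the mean of the other members, 36 genes had a correlation over 0.9, led by mrps23 (0.98), mrpl35 (0.97) and mrps21 (0.97). A single principal component held 74.3% of the variance of the members, and 32.2% was held by the first component of all rows. All rows include genes with fewer counts than any member, and no set of like abundance was taken. The 2 shares are therefore not directly comparable.

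The correlation with the other members was below 0 in 11 genes: mrpl1, mrpl19, mrpl33, mrpl43, mrpl51, mrpl52, mrps15, mrps16, mrps18b, mrps31 and mrps33. They comprised 6 large and 5 small subunit genes, 5 with a bacterial counterpart and 6 counted as without, mrps18b among them. Relative to wild type their mean was 0.292, -0.0909, -0.0983 and -0.103 across the wild types and 0.443, 0.422, 0.217 and 0.286 across the homozygotes. For the other 63 it was -0.351, 0.35, 0.0621 and -0.0608 in wild types and -0.29, 0.0893, -0.479 and -0.587 in homozygotes. This division was drawn from the same values and carries no test. The lowest correlation was that of mrps18b (-0.78), followed by mrps15 (-0.64) and mrps31 (-0.49).

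With wild-type 1 and homozygote 2 left out together, edgeR called 30 members, 29 lower and 1 higher. That is 39.2% of members lower, where 10.5% of all rows were lower, and 1.35% higher, where 7.86% were. This pair was left out because it stood apart in these data, between the other larvae of the groups. In the members' mean log2 CPM wild-type 1 was the lowest wild type (-0.256) and homozygote 2 the highest homozygote (0.139). Leaving them out was therefore bound to widen the gap between the groups, and the share is only a description. The same limit holds where this fit is used for the lists below, and for the fits without wild-type 1 or homozygote 2 alone. The lower genes were 19 of the 46 large subunit genes (41.3%) and 10 of the 28 small subunit genes (35.7%). In all, 18.3% of rows were called. The gene called higher was mrps31 (log2 fold change 0.64, adjusted p = 0.0406 by edgeR). Among those called lower were mrpl36 (-2.39), mrpl20 (-1.10), mrps35 (-0.92) and mrpl42 (-0.92). The medians were -0.51 for the large and -0.44 for the small subunit, where the median of all rows was 0.07. Without wild-type 1 alone 4 members were called, mrpl39, mrpl42 and mrps36 lower and mrps31 higher, where 9.76% of rows were called (5.77% lower and 3.99% higher). Without homozygote 2 alone 2 were called lower, mrpl36 and mrps35, where 3.46% of all rows were called lower. Without any other single larva 0 were called by edgeR, and between 1 and 15 had an unadjusted p under 0.05. In those fits 0.328%, 0.173% and 1.4% of rows were called without wild types 2, 3 and 4, and 0.266%, 0.318% and 0.484% without homozygotes 1, 3 and 4.

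**Figure D5:**
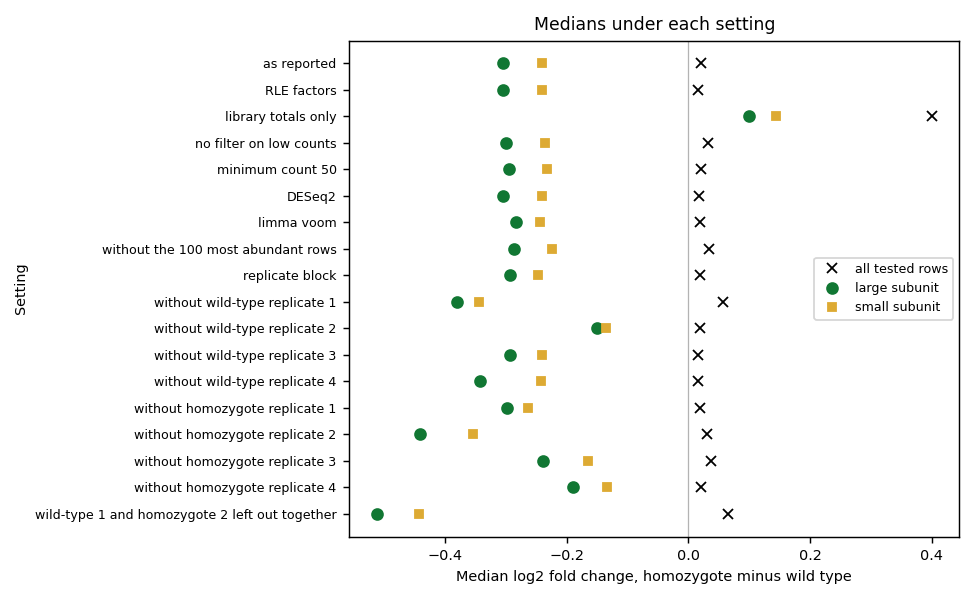
Median log2 fold change (x axis) of large subunit genes, small subunit genes and all tested rows under each setting (y axis). Both subunits lie to the left of all rows in each setting; with library totals only, the subunits lie at 0.10 and 0.14 and all rows at 0.40.

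Other genes of mitochondrial translation gave few differences. Of the mitoribosomal proteins with other symbols, 5 were tested and 0 called by edgeR. Without wild-type 1 and homozygote 2 it called 2 lower, dap3 and gadd45gip1, where 10.5% of all rows were called lower. dap3, of the small subunit, stood at -0.36 (SE 0.17) and gadd45gip1, of the large, at -0.36 (SE 0.26), and both turned to 0.03 with library totals. ptcd3 and chchd1, both of the small subunit, stood at 0.26 (SE 0.16) and 0.17 (SE 0.15). MRPL49 and MRPS12 stood at -0.18 (SE 0.20) and -0.45 (SE 0.19), with an adjusted p of 0.624 and 0.191 by edgeR.

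Of 29 genes of mitoribosome assembly and RNA modification 0 were called by edgeR, and the median was -0.02. Without wild-type 1 and homozygote 2 it called 1 higher, eral1, and 3 lower, with a median of -0.17. In that fit 7.86% of all rows were called higher and 10.5% lower. In 4 of the 29 genes, the 4 with the smallest p, every homozygote was above every wild-type larva. This was 13.8% of the list, where 5.5% of all rows were apart in that direction. eral1, for a GTPase that binds the small subunit RNA, had 11.6, 11.8, 9.78 and 10.1 CPM in the wild types and 16.5, 13.6, 14.6 and 14.6 CPM in the homozygotes (log2 fold change 0.45, SE 0.16, adjusted p = 0.131 by edgeR). mpv17l2, whose human protein takes part in mitoribosome assembly, stood at 0.44 (SE 0.17) and mtg1, for a GTPase of the large subunit, at 0.51 (SE 0.24). mrm1, for a methyltransferase of the large subunit RNA, stood at 1.29 (SE 0.44) with at most 1.122 CPM in any larva. Library totals raised fold changes in general, so that setting was no check on the side of 0 of these 4. Across the alternatives the adjusted p of eral1 ran from 0.0445, without wild-type 1 and homozygote 2, to 0.319.

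Of 19 mitochondrial translation factors 0 were called by edgeR and the median was -0.13, or 0.24 with library totals and 0.01 without homozygote 4. Without wild-type 1 edgeR called gatc lower, where 5.77% of all rows were called lower. Without both wild-type 1 and homozygote 2 it called gatc and tufm lower, where 10.5% of all rows were, and the list median was -0.27. tufm, for the elongation factor that brings transfer RNA to the ribosome, had 91.2, 150.2, 122 and 112 CPM in the wild types and 93.3, 101, 80.7 and 70.1 CPM in the homozygotes (log2 fold change -0.46, SE 0.18, adjusted p = 0.163 by edgeR). gatc, for a subunit of the amidotransferase that makes glutaminyl transfer RNA, stood at -0.72 (SE 0.26). taco1, a translational activator in human mitochondria, stood at -0.46 (SE 0.22) and mtrf1, for a release factor, at -0.63 (SE 0.32). Of 14 mitochondrial aminoacyl-tRNA synthetases 0 were called by edgeR and the median was 0.01. Without wild-type 1 and homozygote 2 edgeR called 1 of the 14 lower, where 10.5% of all rows were, and their median was -0.08. The 4 with the smallest p were rars2 (-0.81), lars2 (-0.53), pars2 (0.56) and mars2 (0.57).

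Of 13 genes of mitochondrial transcription and replication 0 were called by edgeR. DESeq2, which called 7.89% of all rows (2.7% higher and 5.2% lower), called 1 of them higher and 1 lower. Without wild-type 1 and homozygote 2 edgeR called 1 higher and 2 lower, where 7.86% of all rows were called higher and 10.5% lower. esrra, for a nuclear receptor that activates mitochondrial genes, had 25.9, 28.3, 29.8 and 25.5 CPM in the wild types and 46.3, 33.4, 39.4 and 37.2 CPM in the homozygotes. Every homozygote was above every wild-type larva (log2 fold change 0.51, SE 0.15, adjusted p = 0.0875 by edgeR and 0.0281 by DESeq2). Without homozygote 2 edgeR called esrra higher (adjusted p = 0.0463), where 1.85% of all rows were called higher. Homozygote 2 was the lowest homozygote for this gene, so leaving it out was bound to widen the gap. Over all alternatives the adjusted p of esrra ran from 0.0239 to 0.215. gabpa encodes a subunit of a factor known in mammals to activate genes for mitochondrial proteins. The wild types had 24.8, 41.0, 38.4 and 33.0 CPM and the homozygotes 24.2, 24.1, 23.5 and 19.8 CPM, the highest of which lay just below the lowest wild type (log2 fold change -0.58, SE 0.17, adjusted p = 0.0952 by edgeR and 0.0376 by DESeq2). Without wild-type 1 edgeR called gabpa lower (adjusted p = 0.0249), where 5.77% of all rows were called lower. Wild-type 1 was the lowest wild type for this gene, so leaving it out was likewise bound to widen the gap. Over all alternatives the adjusted p of gabpa ran from 0.0122 to 0.508. nrf1, for another such factor, stood at -0.43 (SE 0.16), with the groups apart, and tfam, which packages mitochondrial DNA, at 0.29 (SE 0.16). Of the 13 genes, 1 had the groups apart with homozygotes higher and 2 with homozygotes lower (23.1%). Over all rows 10.4% were apart, 5.5% higher and 4.95% lower.

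Of the 5 measured genes of threonylcarbamoyl synthesis only osgep was called by edgeR. osgepl1, for the mitochondrial enzyme, had 1.122, 1.07, 2.08 and 1.87 CPM in the wild types and 1.25, 1.59, 1.33 and 0.514 CPM in the homozygotes. The groups overlapped (log2 fold change -0.40, SE 0.41, adjusted p = 0.592 by edgeR). tprkb and tp53rk, for partners of osgep in KEOPS, stood at 0.35 (SE 0.22) and -0.18 (SE 0.18), the latter turning to 0.21 with library totals.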

How the data were processed

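Per the labels' protocols, total RNA of single larvae was treated with DNase and sequenced on an Illumina NovaSeq after ribosomal RNA depletion. Per the submitters' processing notes, the authors used Trimmomatic, STAR 2.7 and RSEM with build danRer11. Settings, annotation and strand are not given in the sources used here. The deposited values are estimated counts per gene; 88.0% to 90.9% were whole. RSEM divides reads among near-identical genes, and overlapping genes may share reads.

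Estimated counts were rounded. Rows passed filterByExpr (minimum count 10), were TMM-scaled and tested for genotype by the robust quasi-likelihood method of edgeR 4.0.16 under R 4.3.3, with Benjamini-Hochberg adjustment at 0.05. SEs came from the fold change and F. Mean log2 CPM used a prior count of 2. Alternatives used DESeq2 1.42.0, limma 3.58.1 voom, other scalings and filters, and left out larvae. Each test was first tested on simulated data. Of 2-fold changes edgeR recovered 39%, voom 29% and DESeq2 55%. False calls were 11 of 136 for edgeR, 8 of 121 for voom and 38 of 184 for DESeq2. With no change simulated DESeq2 made 4 calls, and edgeR and voom made 0. Genes were simulated independently of each other and with 2-fold and 4-fold changes only. These rates therefore do not describe smaller changes or genes that move together by larva, as most members did.

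Members and lists were chosen with earlier results of these data known. Genes were named by a rule: osgep; members with the smallest p (8), the lowest and highest fold changes (4 each) or the most and fewest counts (3 each); the genes of uncertain place and paralogs; up to 4 per list. Genes listed by correlation were added after seeing values. Of the members, 73 had a place in GRCz12tu. Counts of any pair of larvae in a group differed beyond sampling noise (chi-square over its degrees of freedom, 20.2 to 77.7). Replicates are separate larvae of unknown clutch, so the p-values reflect larva-to-larva spread.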

Additional observations from a re-analysis of the deposited data

Results flagged for a closer look

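Within a genotype, a larva was marked where its gap to the nearest other larva exceeded the 95% limit of Dixon's test for 4 values, which takes that gap as a part of the group's range. Chance alone marks about 1 in 20 groups. Over the 148 groups of members it marked 6 (4.05%).

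Among the members chosen by the naming rule, 2 were marked, both for homozygote 2. mrpl36 was at 27.99 CPM in homozygote 2, and the next homozygote was at 4.25 CPM, a gap of 0.954 of the range. mrpl2 was at 56.5 CPM in homozygote 2 and the next homozygote was at 41.6 CPM, a gap of 0.946 of the range.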

How the results depend on the processing

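Members called numbered 0 in the reported fit and under RLE factors, library totals, no filter, a minimum count of 50, DESeq2, limma voom, removal of the 100 most abundant rows, the replicate block and the added symbols in capitals. With wild-type 1 and homozygote 2 left out together 30 were called (large 19, small 11). With single larvae left out the number ran from 0 to 4 (0 to 2 in each subunit). With library totals the medians moved to 0.0989 (large) and 0.144 (small), and mrps18a (0.342), mrps18c (0.0444), dap3 (0.0347), gadd45gip1 (0.0281) and tp53rk (0.214) turned sign; without a single larva mrps18a ran from -0.17 to 0.0842. With library totals the median of all rows rose as well, from 0.02 to 0.40. Why mrps18a moved when single larvae were left out was not tested. With a minimum count of 50 mrm1, mtrf1 and osgepl1 were not fitted. Rows called over the whole table, 226 as reported, were 123 with library totals, 349 with no filter, 1693 with DESeq2, 136 with voom and 3952 without both larvae, and 38 to 2130 with single larvae left out. osgep was -1.28 with library totals (adjusted p = 0.0536 by edgeR) and -1.84 to -1.46 with single larvae left out. With the replicate block 333 rows and 0 members were called. Taken as deviations of log2 CPM from the group mean of each gene, same-numbered larvae correlated between -0.107 and 0.0519. These values showed no pairing by number, but with 4 larvae a group they cannot settle it. With 4 larvae a group, changes of the size seen here had SEs of 0.17 to 0.77 on the log2 scale among the named members.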

Other observations

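The gene order of GRCz12tu was used for neighbours only. On either side of mrpl36 lie ndufs6, for a subunit of respiratory complex I, and lpcat1, for a phospholipid enzyme. ndufs6 had 32.9, 58.5, 52.4 and 55.5 CPM among the wild types and 33.5, 63.6, 29.1 and 30.3 CPM among the homozygotes, so that homozygote 2 was the highest larva and homozygotes 1, 3 and 4 lay close to wild-type 1 or below it. lpcat1 had 6.955, 7.64, 8.44 and 7.30 CPM among the wild types and 6.51, 8.95, 5.73 and 6.08 CPM among the homozygotes, with homozygote 2 again the highest. Among the members, homozygote 2 was the highest homozygote in 65 genes and the highest of all larvae in 14. A link of these neighbours to mrpl36 was not tested. The neighbours beyond ndufs6, the homeobox genes irx4b and irx1b, were not highest in homozygote 2, at 0.963 and 3.46 CPM there.

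On the chromosome of osgep lie 4 members: mrps18a, mrpl42, mrps10 and mrps33, separated from osgep by 27, 77, 122 and 168 positions in the order of protein-coding genes. Their log2 fold changes were -0.04, -0.60, -0.52 and 0.26, and none was called by edgeR.

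The 5 tested rows outside the members whose log2 CPM followed the members' mean most closely over the 8 larvae were prmt1 (Pearson r 0.995), pa2g4b (0.994), timm23a (0.991), sec13 (0.99) and abce1 (0.988). Within each larva all genes share the same scaling factor here, and none of these genes was called by edgeR.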
